A study of Ptychodera flava with 8 samples.

Results

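Regions of chromatin that first appeared in the peak list of the mid gastrula and were listed again at late gastrula were followed in Ptychodera flava, an acorn worm of the phylum Hemichordata. The peak lists of 4 stages were merged wherever peaks overlapped by at least 1 bp, which gave 82811 regions. Members were chosen by the presence or absence of peaks alone: a region belonged to the set when it held a peak at mid gastrula and at late gastrula and none at early blastula or early gastrula. The set held 5996 regions, 7.24% of all regions, and they are called mid-opened regions below. The word opened refers to this order of presence in the lists, since a region without a peak at a stage may be accessible there below the threshold of that list.

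Whole animals were profiled by ATAC-seq at the early blastula and at the early, mid and late gastrula, with 2 libraries per stage and 8 in all. Animals were pooled to 75000 cells per library, stripped of their jelly coat with N-acetylcysteine, then incubated with DTT in seawater that contained NaOH. The groups differ in stage, and the labels name no genotype or strain and no treatment that only some groups received. Each stage was represented by 1 deposited list, so no value per library was used, no difference between stages has a replicate check and no test was made. The sequencing depth is unknown, and all intervals below are Wilson 95% intervals or order-statistic 95% intervals of a median that cover counting error only. Whole embryos mix all cell types, so a region open in fewer cells and a region less open in each cell cannot be told apart.

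In ATAC-seq the Tn5 transposase inserts adapters where DNA is free of nucleosomes, so peaks lie mainly at promoters, enhancers and other sites that proteins occupy. During gastrulation the embryo's wall folds inward to form the archenteron, the primitive gut, and germ layers take on separate fates. In hemichordates the archenteron also gives off the pouch of the anterior body cavity. Enhancers used by newly specified cell types commonly become accessible as those cells form. Coordinates are 1-based on the scaffolds as the lists name them, with a genome build not given in the sources used here. Neither gene positions nor sequences were used.

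The deposited enrichment, a fold over background given for each peak, placed mid-opened regions in the lower part of the order at mid gastrula. Their median enrichment was 7.28 at mid gastrula (95% interval 7.21 to 7.33), with the middle 80% of regions between 4.62 and 10.8. At late gastrula the median was 7.74 (7.63 to 7.84), with the middle 80% between 4.73 and 12.1. The upper end of this spread differed more between the stages than the lower end.

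Within the whole mid gastrula list the median mid-opened peak stood at the 34.2 percentile by enrichment, and within the whole late gastrula list at the 50.1 percentile. The median change was 9.83 points, and 79.4% of mid-opened regions were higher in the late list than in the mid list, against 69.5% of all regions with a peak in both lists. These percentiles come from lists of 43317 and 64713 peaks, and ranks in lists of different lengths show no change by themselves. With the lists cut to equal lengths the median change was 2.83 points.

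A second order was therefore taken among the 37948 regions with a peak in both the mid and the late gastrula list, here called the shared order, in which both percentiles run over the same regions. Which regions enter it still depends on the lists: at equal list lengths the median change given next was 4.25 points and the share higher 68.2%. In that order mid-opened regions stood at a median percentile of 31.8 at mid gastrula and 37.4 at late gastrula. Late gastrula was higher for 3817 of the 5996 mid-opened regions, 63.7% (62.4 to 64.9), beside 48.2% of all 37948 regions. The median change was 3.39 points (3.02 to 3.78), and the middle 50% of regions lay between a change of -3.39 and 13.4 points. A change of less than 25 points was found in 5295 of them, 88.3%, against 92.2% of all regions in both lists.

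**Figure D1:**
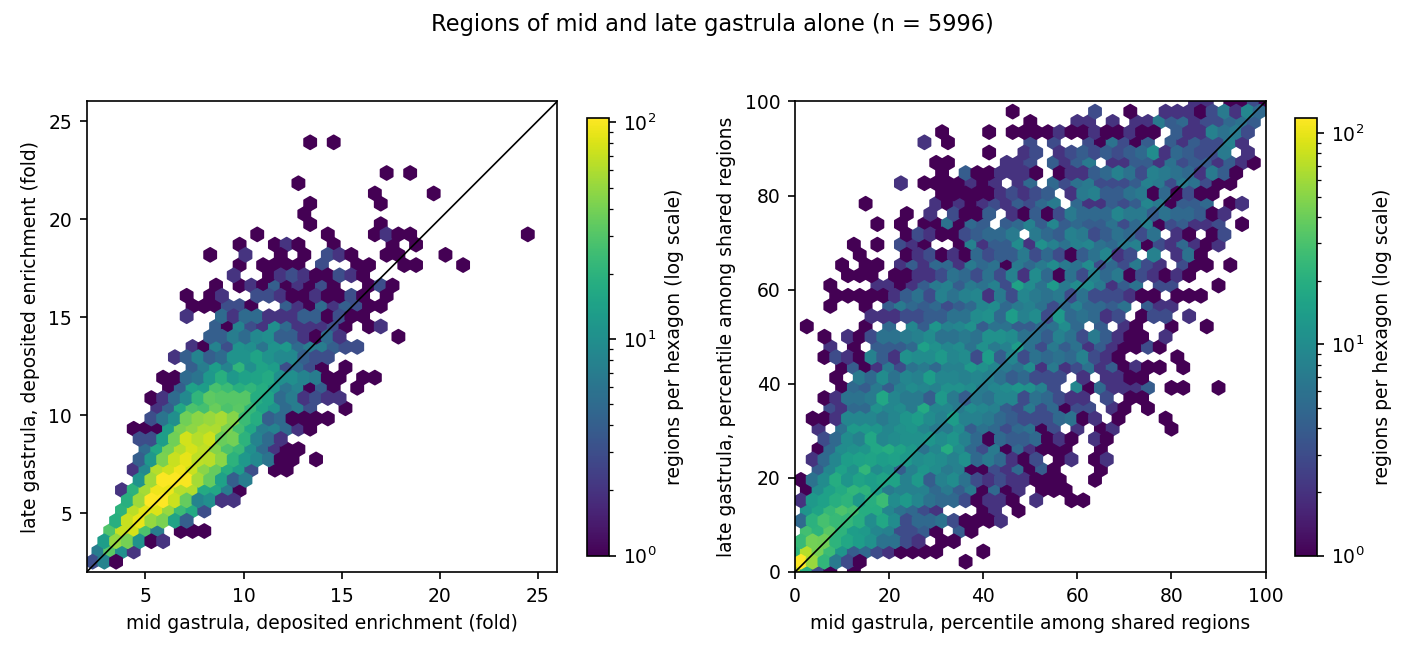
Enrichment (left) and percentile in the shared order (right) of the 5996 mid-opened regions, mid gastrula on the x axis and late gastrula on the y axis. Colour gives the number of regions per hexagon on a log scale, and the line marks equal values. More regions lie above the line than below it, with medians of 7.28 and 7.74 fold and of 31.8 and 37.4 percentile.

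Regions with peaks already present at earlier stages gave lower shares. The 6354 regions of early, mid and late gastrula were higher at late gastrula in 49.0% (47.8 to 50.2), with a median change of -0.20 points. The 24094 regions present at all 4 stages were higher in 43.4% (42.8 to 44.1), with a median change of -1.14 points. The 1504 regions with peaks at early blastula, mid and late gastrula but none at early gastrula were nearer to mid-opened regions, at 59.8% (57.3 to 62.3).

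The deposited enrichment itself gave the same order of patterns without any ranking. Its value was higher at late gastrula in 63.3% of mid-opened regions, against 49.4% of all regions in both lists, 49.4% of the regions of early, mid and late gastrula and 45.4% of the regions of all 4 stages. The median ratio of late to mid gastrula enrichment was 1.06 in mid-opened regions, 0.997 in regions of early, mid and late gastrula and 0.983 in regions of all 4 stages. In regions with a peak at every stage but early gastrula the share was 59.4% and the median ratio 1.04. Ranked by the deposited −log10 p in place of enrichment, 63.6% of mid-opened regions were higher at late gastrula, against 48.9% of all regions in both lists.

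Mid-opened regions stood lower at mid gastrula than regions of early, mid and late gastrula or of all 4 stages. Their median shared percentile was 31.8, against 43.0 and 58.9. This low place was not particular to them, since regions with a peak at every stage but early gastrula stood at 34.3. Within the whole mid gastrula list, regions of mid gastrula alone had a median percentile of 33.3 and mid-opened regions 34.2. The comparison was therefore repeated within 5 equal classes of the shared order. By mid gastrula percentile, mid-opened regions were higher at late gastrula in 71.7% of the lowest class, 66.0% of the second, 58.6% of the third, 54.7% of the fourth and 44.0% of the highest. Regions of early, mid and late gastrula gave 59.1%, 50.2%, 48.9%, 43.4% and 35.6% in the same classes. Regions of all 4 stages gave 55.9%, 49.7%, 45.6%, 39.0% and 34.6%. The share declined with the starting place in all 3 patterns, and mid-opened regions had the highest share of the 3 in each class.

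Classes by the mean of the mid and late percentiles, which favour neither stage, gave a flatter picture. Mid-opened regions were higher at late gastrula in 61.0%, 62.2%, 64.2%, 70.2% and 66.0%, from the lowest class to the highest. Regions of all 4 stages stayed between 42.4% and 44.4% across these classes, and regions of early, mid and late gastrula between 45.1% and 51.4%. The numbers of mid-opened regions per class were 1837, 1600, 1309, 862 and 388, so the highest class carries the widest interval (61.1 to 70.5).

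**Figure D2:**
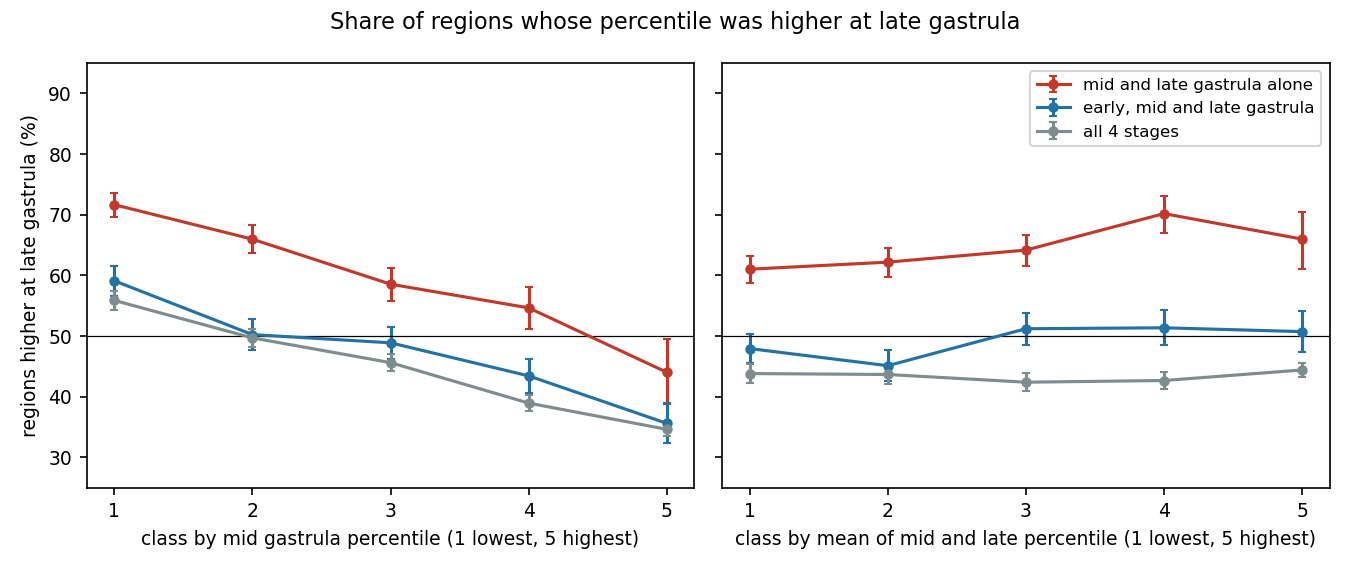
Share of regions whose percentile in the shared order was higher at late than at mid gastrula, by class of mid gastrula percentile (left) and of the mean of both percentiles (right), for 3 patterns. Points are shares and bars Wilson 95% intervals; mid-opened regions lie above both other patterns in every class, from 71.7% to 44.0% on the left.

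Peaks of mid-opened regions passed a strict limit of reproducibility less often than those of all regions in both lists. The irreproducible discovery rate (IDR) of a peak is low where replicates rank it consistently high, so a weak peak can also have a high IDR. It was at most 0.01 in 17.3% of mid-opened regions at mid gastrula, against 54.9% of all regions in both lists. At late gastrula it was at most 0.01 in 51.3%, against 75% of all. The maximum score of 1000 was held by 7.40% of mid-opened regions at mid gastrula, against 42.4% of all, and by 33.3% at late gastrula, against 61.8%. Regions with a peak at every stage but early gastrula held it less often, in 5.32% and 25.997%, and regions of early, mid and late gastrula more often, in 30.1% and 51.9%.

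The share of mid-opened regions that stood higher in the shared order went opposite ways with the IDR of each stage, as it did in all regions. By the mid gastrula peak it was 49.3% of the 1036 regions with an IDR of at most 0.01 and 72.4% of the 2400 with an IDR over 0.05, against 36.9% and 70.0% of all regions in these classes. The median change of the mid-opened regions was -0.11 and 5.62 points in these classes. By the late gastrula peak the share was 74.2% of the 3078 regions with an IDR of at most 0.01 and 34.3% of the 767 with an IDR over 0.05, against 50.2% and 28.0% of all regions. Each IDR belongs to a stage whose percentile enters the change, so the direction of these splits follows in part from the grouping. For the 941 mid-opened regions with both peaks at 0.01 or below the share was 52.3%, against 38.2% of all such regions, and their median change was 0.66 points, against -2.01. When the mid and late lists were first reduced to such peaks and ranked anew, it was 63.0% in mid-opened regions, 50.9% in regions of early, mid and late gastrula and 48.0% in regions of all 4 stages.

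A small part of the set moved far. Mid-opened regions at least 25 points higher at late gastrula numbered 547 (9.12%, against 4.41% of all regions in both lists), and those at least 25 points lower numbered 154 (2.57%, against 3.38%). Regions with a peak at every stage but early gastrula had a similar share of such rises, 8.98% (7.63 to 10.5). Falls of this size were found in 3.46% of them. The 547 had a median enrichment of 7.27 at mid and 10.5 at late gastrula, and a median width of 266 and 306 bp. The 154 had a median enrichment of 9.66 and 6.99, and a median width of 279 and 268.5 bp. The late gastrula peak was the wider one in 75.7% of the 547 and in 35.1% of the 154. By −log10 p all of the 547 and none of the 154 were higher at late gastrula. Enrichment and −log10 p describe the same peaks and are no independent measures.

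The 5 regions with the largest upward change stood in the lower part of the shared order at mid gastrula, at percentiles from 14.9 to 32.6. A rise of this size is possible only from a low place. On scaffold 21 at 35789875 to 35790434 the enrichment was 6.96 at mid and 15.2 at late gastrula, and the shared percentile 27.6 and 91.9. This region also widened from 432 to 560 bp. On scaffold 20 at 21517239 to 21517484 the enrichment was 6.96 and 14.9, and the nearest region of any pattern lay 9661 bp away. Also on scaffold 20, at 29352386 to 29352770, it was 7.33 and 15.4. On scaffold 10 at 42135941 to 42136334 it was 7.26 and 15.9, with a −log10 p of 17.4 and 63.6, and an earlier-stage region lay 517 bp away. On scaffold 17 at 9039599 to 9039992 it was 5.87 and 11.9, and here the summit lay 141 bp lower on the scaffold at late gastrula, while a region of all 4 stages lay 434 bp away. The changes of these 5 regions ranged from 60.03 to 64.2 points by enrichment, and all 5 were also higher by −log10 p, by 60.9 to 74.6 points.

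The 5 regions with the largest downward change had stood between the 59.3 and the 88.8 percentile at mid gastrula. A fall of this size is not possible from a low place. On scaffold 6 at 30397638 to 30397855 the enrichment was 13.9 at mid and 7.91 at late gastrula, and the summits lay 4 bp apart. On scaffold 19 at 11963003 to 11963409 it was 12.2 and 7.23, although the peak widened from 232 to 407 bp. On scaffold 21 at 16057726 to 16058327 it was 9.67 and 5.70, with the summit at the same base. The others lay on scaffold 19 at 1203836 to 1204154 (11.7 and 7.36) and on scaffold 13 at 27496854 to 27497060 (9.53 and 5.70). Their changes ran from -49.4 to -44.5 points by enrichment and from -57.0 to -22.1 points by −log10 p.

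Peaks of mid-opened regions became slightly wider. The median width was 276 bp at mid gastrula (273 to 279) and 291.5 bp at late gastrula (288 to 295). Over all regions in both lists it was 306 bp at either stage, with a median change of 1 bp. The medians over the whole lists, 299 and 273 bp, cover different peaks and show no change of the same regions. Peaks of late gastrula alone had a median of 235 bp. The late peak was wider in 3690 mid-opened regions, 61.5% (60.3 to 62.8), against 50.8% of all regions in both lists. It was wider in 52.8% of the regions of early, mid and late gastrula and in 47.1% of the regions of all 4 stages. Regions with a peak at every stage but early gastrula came nearer to mid-opened regions, at 56.8%. The median change was 12 bp in mid-opened regions, 3 bp in regions of early, mid and late gastrula and -2 bp in regions of all 4 stages.

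The share of wider peaks varied with the mid gastrula place, from 65.5% in the lowest class to 56.0% in the fourth, and was 60.2% in the highest. Across the 5 classes of mean percentile the share of wider peaks among mid-opened regions stayed between 60.4% and 62.0%. Spearman's rho between the change of percentile and the change of width was 0.20 over the 5996 regions, a description across regions of the same libraries. It was 0.17 in regions of early, mid and late gastrula and 0.15 in regions of all 4 stages. With all lists at an IDR of at most 0.01 the patterns were drawn anew, and the mid-opened pattern held 2751 regions. Only 941 of the 5996 had both peaks at that limit, so most of the 2751 lay in regions with an earlier peak in the full lists. Of the 2751, 56.7% were wider, against 48.1% of the regions of early, mid and late gastrula and 44.5% of the regions of all 4 stages.

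The late gastrula peak mostly sat on the same bases as the mid gastrula peak. Of the 5996 regions, 5957 (99.3%, against 93.6% of all regions in both lists) held exactly 1 peak at each of these stages, and in these the bases covered by both peaks made up a median of 87.3% of the merged region. The mid gastrula peak lay wholly inside the late one in 38.8%, against 29.3% of all regions in both lists, and the late one inside the mid one in 19.9%, against 26.9%. In regions with a peak at every stage but early gastrula these shares were 35.4% and 20.9%. Of the mid-opened regions with more than 1 peak at a stage, 20 had 2 mid peaks and 1 late peak. Another 17 had 1 and 2, 1 had 1 and 3, and 1 had 2 of each.

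Summits, the positions of highest signal in a peak, scarcely moved. The median distance between mid and late gastrula summits was 10 bp (10 to 11), against 8 bp in all regions in both lists. In 442 mid-opened regions the summits were at the same base, 7.37%, against 9.25% of all regions in both lists. They lay within 25 bp in 68.5% of mid-opened regions (67.3 to 69.6), against 73.7% of all regions in both lists, 70.7% of the regions of early, mid and late gastrula and 75.6% of the regions of all 4 stages. Summits over 100 bp apart were found in 180 mid-opened regions, 3.002%, against 3.51% of all regions.

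**Figure D3:**
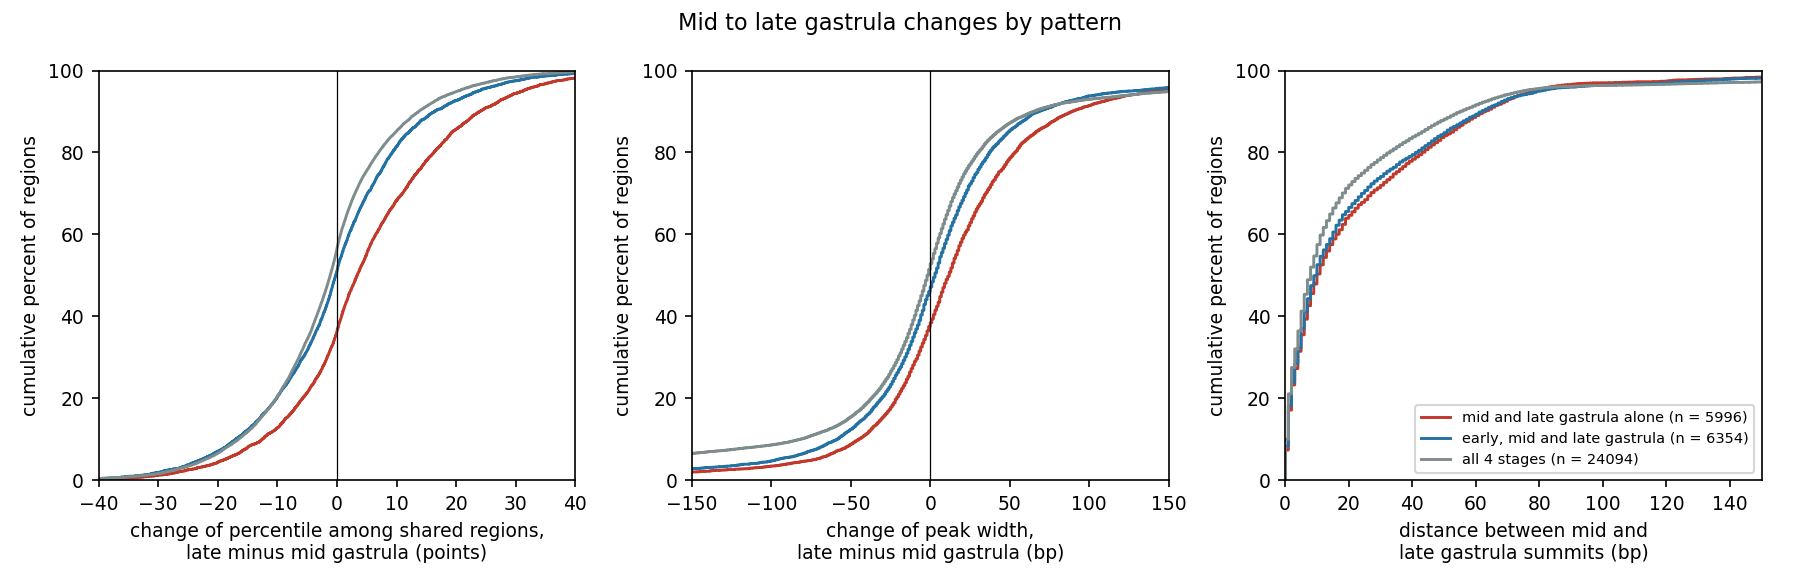
Cumulative share of regions (y axis, percent) by change of percentile in the shared order (left, points), change of peak width (middle, bp) and distance between summits (right, bp), from mid to late gastrula, for 3 patterns. The curve of mid-opened regions is displaced toward higher and wider late gastrula peaks, with medians of 3.39 points and 12 bp, while the summit curves of mid-opened regions and of regions of early, mid and late gastrula share a median of 10 bp.

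The 3 largest summit displacements were in regions 606 to 914 bp wide, against a median of 311 bp for the set. On scaffold 15 at 12588567 to 12589480 the peak grew from 460 to 914 bp and the summit moved by 606 bp, while the enrichment was 8.86 at mid and 7.73 at late gastrula. On scaffold 11 at 17145840 to 17146445 the summit moved by 428 bp toward lower coordinates in a weak peak of enrichment 2.75 and 2.89. On scaffold 4 at 19836395 to 19837070 it moved by 409 bp, also toward lower coordinates, with enrichments of 6.28 and 5.70. The scaffold 15 region was also among the 3 widest of the set. The widest was on scaffold 17 at 23090275 to 23091337, with a merged width of 1063 bp, peaks of 1039 and 863 bp and enrichments of 6.69 and 8.59. Next came scaffold 6 at 11633768 to 11634699, 932 bp wide, where the enrichment was 5.09 and 5.70.

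The strongest mid-opened regions at mid gastrula mostly kept a high place. The highest enrichment was on scaffold 24 at 7971299 to 7971649, with 24.8 at mid and 19.4 at late gastrula and summits 16 bp apart. On the small scaffold 137, at 15813 to 16115, it was 21.4 and 17.9, and no other region was listed on that scaffold. On scaffold 13 the region at 32886260 to 32886655 had 20.5 and 18.4, and the region at 20068929 to 20069239 had 19.8 and 21.2. The fifth was on scaffold 5 at 34646821 to 34647178, with 18.8 and 17.5 and the summit at the same base. The lowest percentile of the 5 in the shared order was 96.7 over both stages, and 4 of the 5 had a lower enrichment at late than at mid gastrula.

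The strongest mid-opened regions at late gastrula were 5 others. The highest was on scaffold 22 at 24229942 to 24230245, with an enrichment of 13.6 at mid and 23.7 at late gastrula, and 1 other region lay within 50 kb. On scaffold 15 at 22308427 to 22308800 it was 14.7 and 23.6, with a −log10 p of 39.1 and 96.2, in a neighbourhood of 20 other regions within 50 kb. The region on scaffold 19 at 23671598 to 23672132 had 17.5 and 22.5 while its peak narrowed from 535 to 330 bp. On scaffold 21 at 27524012 to 27524284 the values were 18.3 and 22.2, and the nearest region of any kind, 6867 bp away, was itself mid-opened. On scaffold 43 at 208759 to 209125 they were 12.8 and 21.8, and the peak widened from 211 to 367 bp. The 5 stood between the 84.1 and the 97.7 percentile of the shared order at mid gastrula, and between 99.5 and 99.8 at late gastrula.

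Mid-opened regions and regions of early, mid and late gastrula lay closer to mid-opened regions than regions of all 4 stages or of late gastrula alone did. The median distance from a mid-opened region to another one was 30041 bp (28221 to 31726), and 16.3% had another within 5 kb, against 11.9% of all regions. The median distance to a mid-opened region was 30123 bp from regions of early, mid and late gastrula, 37581 bp from regions of all 4 stages and 38322 bp from regions of late gastrula alone. Within 1 kb the shares were 6.75%, 5.29%, 3.66% and 4.36% in the same order of starting pattern.

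The share with a constant region close by was near that of regions in general. A region of all 4 stages lay within 5 kb of 38.0% of mid-opened regions, at a median distance of 7848 bp (7466 to 8341), against 39.4% of all regions, and regions of early, mid and late gastrula had a median distance of 7150 bp to them. The median was 20797 bp from mid-opened regions with no earlier peak within 5 kb. With all patterns drawn anew from lists at an IDR of at most 0.01 it was 13172.5 bp. Regions of all 4 stages lay closest to each other, at a median of 5416 bp. Regions of late gastrula alone lay at a median of 11357 bp from mid-opened regions, 11121 bp from regions of early, mid and late gastrula and 13541 bp from regions of all 4 stages. All patterns were drawn anew from shorter lists here as well. From the mid-opened pattern to regions of late gastrula alone the distance was then 37999.5 bp at equal list lengths. It was 19704 bp with all lists at an IDR of at most 0.01. With that limit on the mid and late lists alone it was 42032 bp. Any other region lay within 1 kb of 41.2% of mid-opened regions, against 43.6% of all regions.

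Beside mid-opened regions, the mid-opened pattern itself, regions of early, mid and late gastrula and regions of late gastrula alone took larger shares than beside regions in general. It was another mid-opened region in 678 of 5995 cases, 11.3% (10.5 to 12.1), against 7.07% for the nearest region of all regions. It was a region of early, mid and late gastrula in 10.2% against 7.66%, and a region of late gastrula alone in 21.8% against 17.9%. Regions of early blastula alone were nearest in 7.21% against 9.79%, and regions of all 4 stages in 26.4% against 31.0%. Regions of mid gastrula alone differed little, at 2.24% against 2.14%. Most of this profile was not particular to mid-opened regions. Beside regions of early, mid and late gastrula, their own pattern took 11.4%, the mid-opened pattern 8.91% and early blastula alone 7.29%. Beside regions of late gastrula alone, their own pattern took 22.8%, the mid-opened pattern 8.55% and early blastula alone 7.905%. The mid-opened share was larger beside mid-opened regions than beside either, and it was 6.03% beside regions of all 4 stages.

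**Figure D4:**
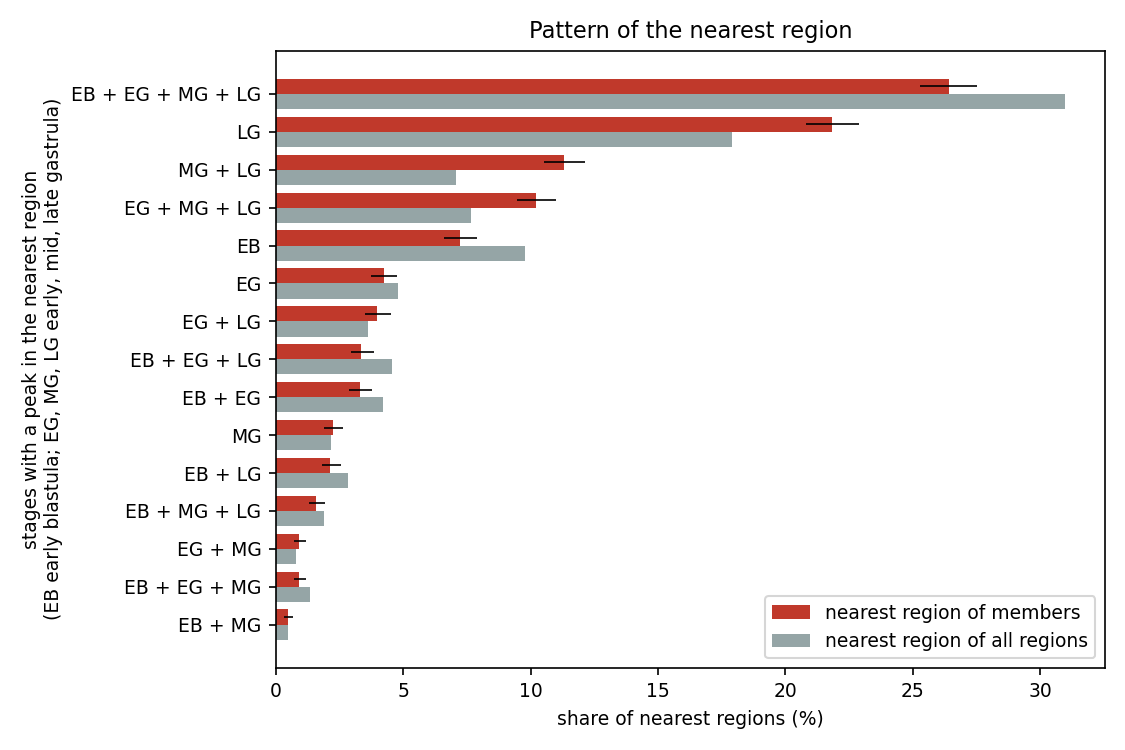
Pattern of the nearest region of mid-opened regions (red bars, with Wilson 95% intervals) and of all regions (grey bars), as a share in percent, by the stages at which the nearest region held a peak. The mid-opened pattern takes 11.3% against 7.07%, and early blastula alone 7.21% against 9.79%.

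Along the scaffold, 4861 mid-opened regions (81.1%) had no mid-opened region as direct neighbour on either side, against 86.2% of all regions, 82.8% of the regions of early, mid and late gastrula and 87.4% of the regions of all 4 stages. The other 1135 (18.9%) stood in runs of at least 2. There were 466 runs of 2, 51 of 3, 6 of 4, 4 of 5 and 1 of 6. The run of 6 was on scaffold 2 between 13083271 and 13093079, a span of 9809 bp. Its enrichments ran from 6.29 to 8.60 at mid gastrula and from 6.51 to 8.93 at late gastrula, and 4 of the 6 were higher in the shared order at late gastrula. Of the runs of 5, that on scaffold 22 between 22506672 and 22510645 was compact, 3974 bp long, with weak peaks of enrichment 4.04 to 5.80 at mid and 4.39 to 5.86 at late gastrula. All 5 of its regions were wider and higher in the shared order at late gastrula. That on scaffold 13 between 11565410 and 11740092 was spread over 174683 bp, and 4 of its 5 regions were higher at late gastrula.

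Neighbouring mid-opened regions changed in the same direction about as often as in opposite ones. Among 190 pairs in which a mid-opened region had another as its nearest region within 1 kb, 94 (49.5%) changed in the same direction in the shared order, and in 64 both were higher at late gastrula. Among 337 pairs within 5 kb, 175 (51.9%) did so. Spearman's rho between the changes of the paired regions was -0.06 within 1 kb and -0.05 within 5 kb, a description over pairs that share their libraries. Since 63.7% of mid-opened regions were higher at late gastrula, unrelated pairs would not split evenly between same and opposite directions. Pairs of other patterns were not counted, so the shares of pairs have no reference.

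Constant regions beside a mid-opened region stood lower at late gastrula more often than other constant regions. Of the 883 regions of all 4 stages within 1 kb of a mid-opened region, 33.9% (30.8 to 37.0) were higher in the shared order at late gastrula, against 43.4% of all regions of all 4 stages. Other late neighbours went with similar shares, 34.6% beside a region of early, mid and late gastrula and 36.3% beside a region of late gastrula alone. Beside a region of early blastula alone it was 45.5%, and beside any other region 40.7%. Ranked by −log10 p, the share beside a mid-opened region was 39.3%, close to the 40.9% beside any other region.

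Enrichment differed with the distance to the nearest region. Mid-opened regions with another region within 200 bp had a median shared percentile of 21.1 at mid and 24.0 at late gastrula, and those beyond 200 and up to 1000 bp from the nearest region 19.5 and 24.5. Those up to 5000 bp away had 29.2 and 34.5, those up to 30000 bp away 52.7 and 63.1, and the 177 over 30000 bp away 58.2 and 63.1. Isolated mid-opened regions thus stood far higher than crowded ones. Regions of all 4 stages went from 50.5 in the nearest class to 85.8 in the farthest at mid gastrula.

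By −log10 p this course was nearly absent in mid-opened regions. Their median percentile by −log10 p at mid gastrula was 18.1 within 200 bp, 20.7, 20.9 and 22.1 in the following classes and 22.1 over 30000 bp. The share of mid-opened regions that were higher at late gastrula by enrichment stayed between 62.0% and 66.4% across the classes. The widths changed little with the surroundings, with a median at mid gastrula between 260.5 and 282 bp. The part of the surroundings in the other results was not tested.

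**Figure D5:**
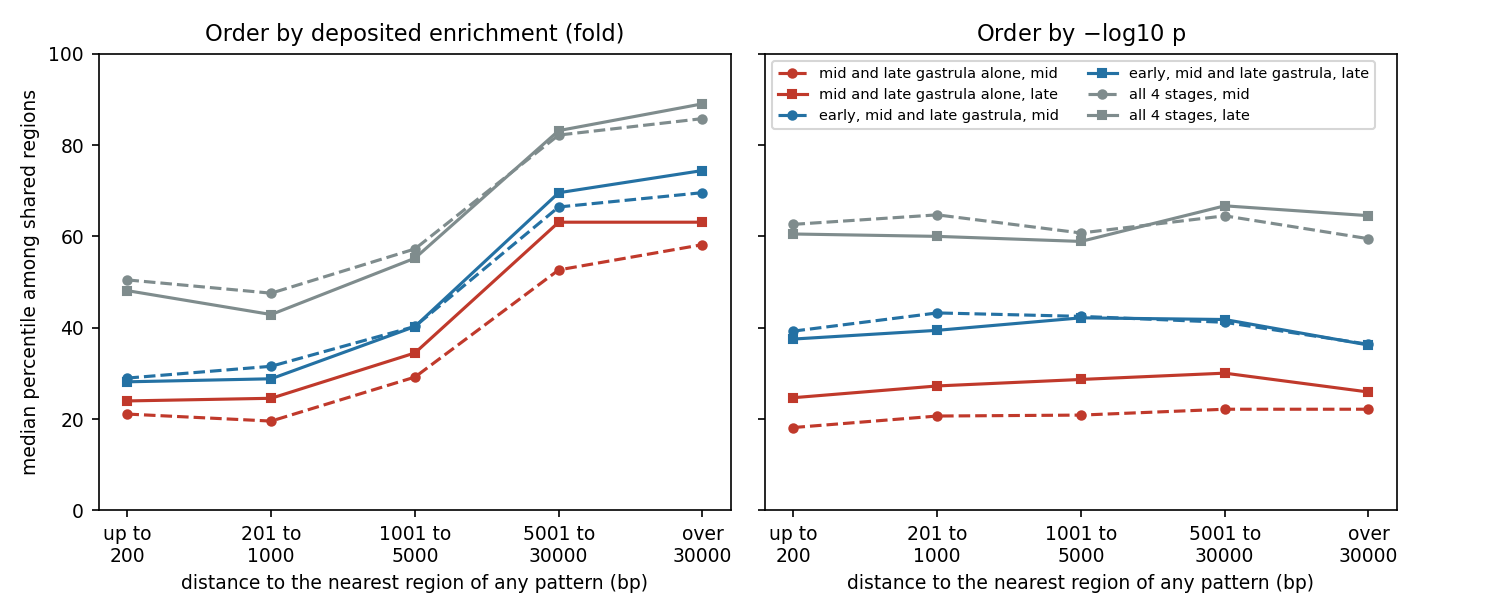
Median percentile in the shared order at mid gastrula (dashed) and late gastrula (solid) by distance to the nearest region of any pattern (x axis, bp), ordered by enrichment (left) and by −log10 p (right), for 3 patterns. By enrichment mid-opened regions climb from 21.1 to 58.2 at mid gastrula, and by −log10 p they stay between 18.1 and 22.1.

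A few mid-opened regions were remote from any other region. On scaffold 23 at 11206813 to 11206999 the nearest region lay 270464 bp away and was mid-opened too, and the enrichment was 8.79 at mid and 12.3 at late gastrula. On scaffold 4 at 50371714 to 50371919 the nearest region lay 234089 bp away and the enrichment was 9.16 and 9.81. On scaffold 11 at 36378378 to 36379068 it lay 190483 bp away, and the peak narrowed from 691 to 234 bp while the enrichment was 7.69 and 9.49. These 3 regions had summits 3 to 6 bp apart between the stages.

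The set was spread over the genome much as regions in general were. On the 27 scaffolds of at least 10 Mb, which held 5880 of the 5996, mid-opened regions made up 5.79% (4.74 to 7.05) of the regions on scaffold 3 and 8.65% (6.19 to 11.95) on scaffold 26, the lowest and the highest share. Their density ran from 1.80 per Mb on scaffold 3 to 7.80 per Mb on scaffold 20. The other 116 lay on 106 smaller scaffolds and made up 7.80% of the regions there. The share that was higher in the shared order at late gastrula exceeded that of the regions of all 4 stages on 27 of the 27 large scaffolds, and exceeded 50% on 26. The exception was scaffold 23 with 47.9% of 94 regions. The scaffolds are parts of the same lists and are not replicates. On scaffold 14, the most crowded, the median shared percentile at mid gastrula was 20.9, and on scaffold 26, the sparsest, 49.9.

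The border of the rule held few regions. Only 6 mid-opened regions had an early blastula or early gastrula peak within 10 bp of their edge, with a median enrichment of 6.92 at mid and 8.97 at late gastrula. Just outside, 1 region was left out through an earlier peak that overlapped its mid or late gastrula peaks by 10 bp or less, and it had 6.92 and 7.28. A region with an earlier peak lay within 100 bp of 304 mid-opened regions, 5.07%, against 10.8% of all regions, and these 304 had a median enrichment of 6.10 and 6.26. Regions of late gastrula alone had a similar share, 4.96%. It was 7.08% in regions of early, mid and late gastrula and 17.0% in regions of all 4 stages. The number of regions that met the rule depended on the threshold of the lists. It was 2751 with all lists at an IDR of at most 0.01, 941 with that limit on the mid and late lists alone, and 2177 when no earlier peak was allowed within 5 kb.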

How the data were processed

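The authors deposited 1 peak list per stage without a header, named as IDR peaks. By the order of the columns, the deposited values are a score (at most 1000), an enrichment as a fold ratio, −log10 of a p-value, a summit offset, and a score that is −log10 of the global irreproducible discovery rate (IDR). The q-value and local IDR columns were not used. Bowtie2, bedtools and MACS2 appear, without role or version, in the submitters' processing notes. Read shifting, duplicate handling, calling settings, pooling and build: not given in the sources used here. These steps and depth can decide which weak peaks are listed, and no list holds an IDR above 0.1.

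Starts were made 1-based. Lists were merged at an overlap of at least 1 bp. Where a stage had several peaks in a region, that of highest enrichment was used. Percentiles are mid-ranks with ties averaged, within a list or among the 37948 regions in both lists. Distances are bases between edges. On 6000 simulated regions, some a few bp apart, 100% of patterns and distances were recovered.

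Members, lists and comparisons were chosen with earlier results of these data known. The distance classes, the 25-point groups, the rank and IDR classes, the neighbour pairs and the comparison of constant regions beside members were chosen after the values were seen. Named regions are those of highest enrichment at mid and at late gastrula, of largest upward and downward change (5 each), the widest, the most displaced summits, the most remote and the longest runs (3 each), with ties resolved by −log10 p at mid gastrula (its highest value in a run), then position. All but the widest, the most remote and the runs were taken among regions with 1 peak at each of both stages. Planned comparisons with genes, motifs and sequence were not run. SciPy 1.17.1, pandas 2.3.3, NumPy 2.4.6 and Matplotlib 3.10.9 ran under Python 3.11.15.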

Additional observations from a re-analysis of the deposited data

How the results depend on the processing

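No paired analysis was possible because the 4 stages have 1 list each, without values per library, and no replicate could be left out for the same reason. The number of regions was 2751 with all lists at an IDR of at most 0.01, 941 with that limit on the mid and late lists alone and 2177 with no earlier peak within 5000 bp. The median change of list percentile, 9.83 points, was 8.51 at an IDR of at most 0.05, 5.06 at 0.01, 2.83 at equal list lengths, 6.14 with the limit of 0.01 on the mid and late lists, 10.98 and 12.3 with no earlier peak within 1000 and 5000 bp, 19.5 by −log10 p, 21.1 by score and 3.39 in the shared order. The median change of width, 12 bp, was 6 bp at an IDR of at most 0.01 and 15 bp at equal list lengths. The median summit displacement, 10 bp, was 9 bp at an IDR of at most 0.01, in all lists or in the mid and late lists. The median distance between mid-opened regions, 30041 bp, was 38621.5 and 74831 bp at an IDR of at most 0.05 and 0.01, 34652 bp at equal list lengths, 292069 bp with 0.01 on the mid and late lists, 27265 bp with windows of 200 bp, and 32005, 48903 and 130669 bp with no earlier peak within 100, 1000 and 5000 bp. Fewer regions lie further apart by construction, and the other causes were not tested. None of the 48 signed changes under alternatives turned its direction. These include the named regions of largest change, which were chosen for that change and then ranked by −log10 p. Classes by IDR and by rank are not among the 48, and there the direction was not the same throughout. Across IDR classes of mid-opened regions the median change in the shared order ran from -2.68 to 7.21 points. Across classes of mid gastrula percentile it ran from -1.12 to 6.48 points. The median change in the shared order, 3.39 points, ran from 2.27 with all lists at an IDR of at most 0.01 to 5.29 with no earlier peak within 5000 bp. The share higher in the shared order ran from 58.6% to 68.2% over 13 alternatives and the share of wider peaks from 56.7% to 65.3% over 11. These alternatives leave out the IDR classes of mid-opened regions in the unchanged shared order, where the share higher ran from 34.3% to 74.2%. It was 52.3% for the 941 regions with both peaks at 0.01 or below.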
